A study of Sus scrofa with 61 samples.

Results

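C-reactive protein (CRP), lipopolysaccharide binding protein (LBP) and leucine rich alpha-2-glycoprotein 1 (LRG1) are plasma proteins made by the liver. All probe-sets that the platform annotation maps to these symbols were taken, which gave 4 probe-sets of 3 genes, out of 23935 probe-sets and 6765 named genes on the array. CRP and LRG1 were represented by 1 probe-set each, and LBP by 2, a brighter and a dimmer. The genes were chosen by their measured signals, with the stage differences in these same data known, so the stage levels are a description and carry no test. The annotation assigns the CRP probe-set to the Entrez gene 396842, while the RefSeq gene table (Sscrofa11.1) holds 2 loci with the symbol CRP, so which of these the probe-set reads is uncertain.

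The samples were livers of German Landrace pigs whose mothers received a gestational low protein diet (LP). Affymetrix porcine arrays covered 16 fetuses at 94 days post conception (94 dpc), 14 piglets at 1 day post natum (1 dpn), 15 at 28 dpn and 16 pigs at 188 dpn, 1 array per animal. Adjacent stages define the developmental periods I (94 dpc to 1 dpn), II (1 dpn to 28 dpn) and III (28 dpn to 188 dpn). The diet was shared by all animals and was given to the mothers only, and the fetuses were taken by Caesarean section in a separate experiment. Per the methods the piglets remaining after the sampling at 1 dpn were reared by foster sows on a standard feed. The discussion of the paper also speaks of cross-fostering at 1 dpn, so the state of the newborns is unclear. Arrays of the adequate protein group were not analysed here, so nothing below bears on the diet. Animals at 28 and 188 dpn were fasted overnight, and for 1 dpn no fast is stated. In period I age and experiment cannot be told apart, and in period II age and the fast may not be separable. Per the paper, pairs of litter mates were chosen at every stage, and only at 94 dpc and 1 dpn were they picked to differ in weight. The paper also states that piglets of a litter were distributed over the postnatal time points, so those stages may share litters. Litter mates are not marked in the labels, so animals were treated as independent although siblings are not. The p-values refer to these arrays and take no account of litters.

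The acute phase response is the rapid change of plasma protein synthesis by hepatocytes after infection or injury. It is driven by cytokines such as interleukin 6 and interleukin 1, which act through STAT3, C/EBP and NF-kappaB factors on the promoters of the acute phase genes. CRP is a pentraxin that binds phosphocholine on bacteria and dying cells and recruits the complement component C1q and Fc receptors. LBP carries bacterial lipopolysaccharide to CD14 and the TLR4 and LY96 receptor complex, and LRG1 is a leucine rich repeat protein that modulates TGF-beta signalling through endoglin.

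All values are log2 of the scaled signal intensity, and a difference is the later minus the earlier stage, so that 1 unit is a doubling. Of the 61 arrays, 9 had a 3-prime to 5-prime control difference far from those of their stage, and arrays of 1 stage correlated with each other on average at 0.86 to 0.907. The mean array median fell from 7.38 at 94 dpc to 7.23, 6.89 and 6.73 at the following stages, and the median difference over all tested probe-sets was -0.16, -0.14 and -0.14 in periods I, II and III. All 5 measured hepatocyte markers lay above the array median at every stage, with a summed median level of 17.9, 18.2, 17.8 and 17.6.

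CRP lay below the array median in the fetal liver and far above it after birth. At 94 dpc the lowest, median and highest fetus had 2.54, 6.17 and 7.02, and 0 of 16 fetuses reached the median of their array. At 1 dpn these values were 9.93, 11.89 and 14.13. At 28 dpn they were 12.78, 14.75 and 15.32, and at 188 dpn 13.04, 14.31 and 15.40. No fetus overlapped with any newborn, and the gap between the brightest fetus and the dimmest newborn was 2.91.

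The mean level of CRP was 5.81 ± 1.15 (SD, n = 16) in fetuses and 12.07 ± 1.41 (SD, n = 14) in newborns. At 28 dpn it was 14.58 ± 0.65 (SD, n = 15), and at 188 dpn 14.39 ± 0.61 (SD, n = 16). The difference in period I was 6.25 (SE 0.44), a 76.4-fold higher signal in newborns. Because fetal signals lay below the array median, the size depends on how dim signals are treated, and with signals below the median raised to it the difference was 4.69. In period II CRP was higher by a further 2.51 (SE 0.38), and 12 of 15 animals at 28 dpn exceeded every newborn. In period III the difference was -0.19 (SE 0.22), with 14 of 16 animals inside the range of 28 dpn. In order of level, 94 dpc came first, followed by 1 dpn, and the neighbours 188 and 28 dpn did not differ beyond their spread.

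Among the stages at which CRP lay above the array median, newborns differed most from each other. The highest newborn had 18.3 times the signal of the lowest, against 5.82 times at 28 dpn and 5.15 times at 188 dpn, while the dim fetal signals spanned 22.4-fold. The newborn signals were spread over the whole interval, with 1 animal below 10, as the plot of the values per animal shows. Replicates 27 to 30, the last newborns in the numbering, had 13.27 to 14.13, against at most 13.39 in the other newborns. The labels do not say what the order stands for, and its part in the spread was not tested. Newborn litter mates were picked to differ in weight, those at 28 and 188 dpn were not, and the part of this in the spread was not tested.

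**Figure D1:**
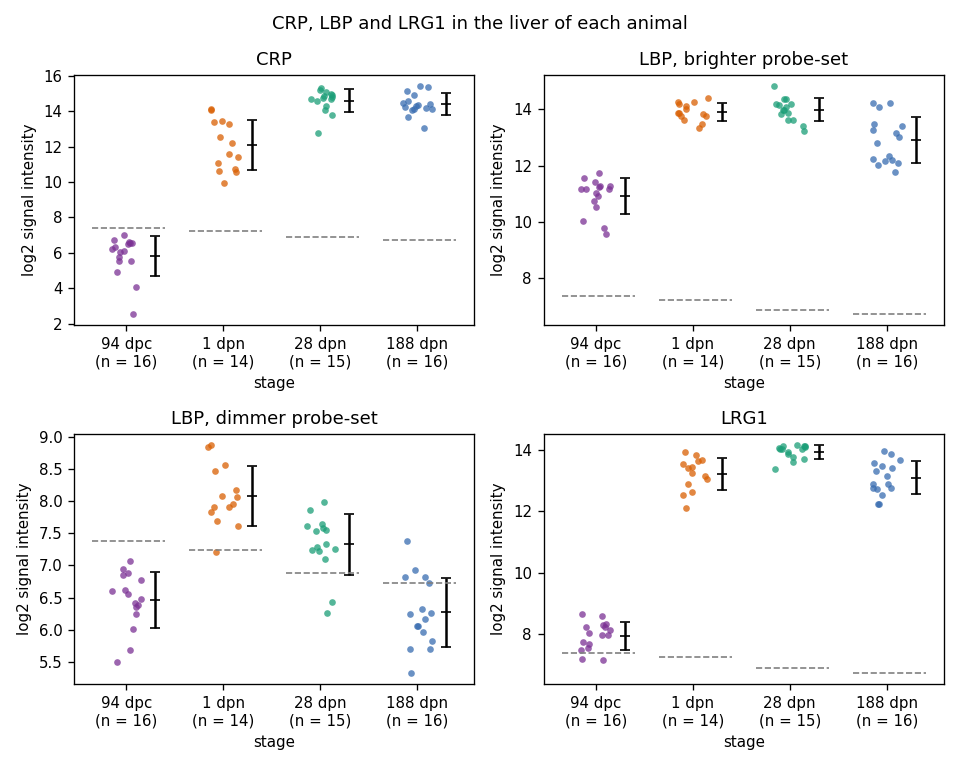
Log2 signal intensity (y axis, a separate scale in each panel) of the 4 probe-sets against stage (x axis). Each point is 1 animal, bars are mean and SD, dashed lines are the mean array median of the stage; CRP at 94 dpc and the dimmer LBP probe-set at 94 dpc lie wholly below that line, and fetuses do not overlap with newborns in any panel.

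LBP was already well measured before birth. On the brighter probe-set the lowest, median and highest fetus had 9.58, 11.16 and 11.75, and all 16 fetuses lay above the array median. At 1 dpn these values were 13.35, 13.88 and 14.40. At 28 dpn they were 13.24, 13.98 and 14.82, and at 188 dpn 11.78, 12.91 and 14.22. Newborns and fetuses did not overlap, 1 and 28 dpn occupied nearly the same range, and the oldest pigs reached from just above the fetal range up into that of the piglets.

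The mean level of LBP was 10.92 ± 0.63 (SD, n = 16) in fetuses and 13.91 ± 0.31 (SD, n = 14) in newborns. At 28 dpn it was 13.98 ± 0.41 (SD, n = 15), and at 188 dpn 12.90 ± 0.82 (SD, n = 16). LBP differed by 2.99 (SE 0.18), or 7.95-fold, in period I and by 0.07 (SE 0.14) in period II, where 13 of 15 animals stayed within the newborn range and the sign turned with quantile normalization (-0.12). In period III the difference was -1.07 (SE 0.23), a 2.11-fold lower signal, and 10 of 16 pigs lay below every animal at 28 dpn. The order of levels was 94 dpc, 188 dpn, then 1 and 28 dpn, which did not differ beyond their spread.

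The dimmer LBP probe-set had the same direction in periods I and III but not in period II. Its means were 6.46 ± 0.44 (SD, n = 16), 8.08 ± 0.47 (SD, n = 14), 7.33 ± 0.47 (SD, n = 15) and 6.27 ± 0.54 (SD, n = 16) from 94 dpc to 188 dpn. The differences were 1.62 (SE 0.16), -0.75 (SE 0.17) and -1.06 (SE 0.18). It exceeded the array median in 0 of 16 fetuses and in 13 of 14 newborns, and in 5 of 16 pigs at 188 dpn, so that its period I difference was 0.70 with dim signals raised to the median. Within a stage the 2 LBP probe-sets correlated over animals with r = 0.20, 0.49, 0.74 and 0.40 from 94 dpc to 188 dpn, so they did not rank the animals alike outside 28 dpn. Below, LBP means the brighter probe-set.

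LRG1 had its main difference at birth and was most uniform at 28 dpn. The lowest, median and highest fetus had 7.14, 7.99 and 8.64, and 14 of 16 exceeded their array median. At 1 dpn these values were 12.11, 13.34 and 13.93. At 28 dpn they were 13.40, 14.03 and 14.15, and at 188 dpn 12.24, 13.01 and 13.96. The gap between the brightest fetus and the dimmest newborn was 3.47, wider than for CRP or LBP.

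The mean level of LRG1 was 7.94 ± 0.45 (SD, n = 16) in fetuses and 13.22 ± 0.53 (SD, n = 14) in newborns. At 28 dpn it was 13.94 ± 0.23 (SD, n = 15), and at 188 dpn 13.09 ± 0.54 (SD, n = 16). The differences were 5.28 (SE 0.17), or 38.9-fold, in period I, 0.72 (SE 0.15) in period II and -0.85 (SE 0.15) in period III. At 28 dpn 10 of 15 animals exceeded every newborn, and at 188 dpn 10 of 16 lay below every animal at 28 dpn, as for LBP. In order, 94 dpc was lowest and 28 dpn highest, and the neighbours 188 and 1 dpn did not differ beyond their spread. Between its dimmest and brightest animal at 28 dpn LRG1 spanned 1.68-fold, against 3.52-fold at 1 dpn and 3.30-fold at 188 dpn.

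All 3 genes were thus higher at 1 dpn than at 94 dpc in every animal. By the limma test given below, a looser criterion, 26.1% of the 12223 tested probe-sets were higher and 41.6% lower. The share of all probe-sets whose fetal and newborn ranges do not overlap was not counted. All 4 member probe-sets passed the filters of each period. CRP and the dimmer LBP probe-set passed in period I through the newborns only, and the latter in period III through the piglets at 28 dpn only. From birth on their courses parted. CRP was the gene with a large further difference in period II, LBP and LRG1 those lower at 188 than at 28 dpn. The other genes of the acute phase response were therefore set beside them, using limma over all tested probe-sets, with a change called at P and q of at most 0.05. Over all tested probe-sets 29.0% were higher and 41.4% lower in period II, and 18.3% and 35.7% in period III. These shares and those of period I are the background of every list count below, and several counts lie near them. Where a list is given with 0 genes in a direction, the limma count was also 0 at an unadjusted P of at most 0.05. Some listed genes also passed the filter through 1 stage only, so their direction was largely set by it. Among them were JAK2 and the erythroid marker KLF1 (through fetuses) and TLR2 and IL10 (through newborns) in period I, and TNF (through 28 dpn) in period II.

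Of 19 other positive acute phase genes measured, 17 were tested in period I, of which 11 rose and 2 fell, with a median change of 0.53. On the brightest probe-set of each gene, the largest increases were those of APCS, the serum amyloid P component and the pentraxin most closely related to CRP (3.10, SE 0.21, q = 1.11e-14), C9, the last component of the complement attack complex (1.78, SE 0.41, q = 7.34e-05), and HPX, which binds haem (1.49, SE 0.09, q = 6.01e-16). Haptoglobin, HP, which binds haemoglobin, rose by 0.94 (SE 0.10, q = 8.35e-10). HRG, a histidine rich plasma glycoprotein, and ITIH3, a hyaluronan binding inter-alpha-trypsin inhibitor chain, decreased, with changes of -1.48 (SE 0.24, q = 7.07e-07) and -0.76 (SE 0.12, q = 5.45e-07). Whether HRG belongs on a list of positive acute phase genes was not checked, and its calls enter the counts of every period. A second SAA2 probe-set rose by 3.26, against 0.42 on the brighter, and an ORM1 probe-set changed by -2.48, against 0.37 on the brighter. All of these changes were smaller than those of CRP and LRG1. APCS, with a mean of 11.62 in fetuses and 14.72 in newborns, was closest in size to LBP.

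In period II the list split, with 6 of 14 tested genes higher and 7 lower and a median of -0.23, where 29.0% of all 12111 tested probe-sets were higher and 41.4% lower. HAMP, the iron regulatory hormone hepcidin, fell by 4.88 (SE 0.84, q = 1.39e-06). SAA2, a serum amyloid A, and HP were lower by smaller amounts, with changes of -0.85 (SE 0.17, q = 1.21e-05) and -0.62 (SE 0.11, q = 1.12e-06), and APCS changed by -0.58 (SE 0.16, q = 0.000451) while CRP was higher, a call that APCS lost with the array median subtracted (-0.23). SERPING1, the C1 inhibitor, rose by 0.66 (SE 0.09, q = 5.94e-08), HRG by 0.59 (SE 0.27, q = 0.0098, not called with quantile normalization) and ITIH3 by 0.35 (SE 0.15, q = 0.00576). The other probe-sets of SAA2 and ITIH3 were called in the opposite direction in this period, and when all probe-sets of a gene were averaged 2 of 16 tested genes were higher and 10 lower.

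In period III 2 of 10 tested genes rose and 4 fell, with a median of -0.11, against 18.3% and 35.7% of all 10956 tested probe-sets. HAMP rose by 5.97 (SE 0.65, q = 3.25e-09) and HRG by 0.67 (SE 0.15, q = 0.000162, another HRG probe-set at -0.22 not called). C9 fell by 0.57 (SE 0.10, q = 5.68e-06), SAA2 by 0.48 (SE 0.13, q = 0.00095) and ITIH3 by 0.34 (SE 0.16, q = 0.0207), each with its further probe-sets also lower, and ITIH3 lost its call with the median subtracted or without deviating arrays. With the array median subtracted the counts in period III turned to 5 higher and 2 lower. LBP and LRG1 kept lower signals at 188 dpn under that scaling, with differences of -0.92 and -0.69.

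Hepcidin had a larger SD among animals than any member at 94 dpc, 1 dpn and 28 dpn. At 188 dpn its SD of 0.76 was below the 0.82 of LBP. At 94 dpc it ranged from 9.04 to 13.57 and at 1 dpn from 6.54 to 14.92. At 28 dpn it ranged from 3.08 to 11.52, with 8 of 15 piglets above the array median, and at 188 dpn from 11.44 to 14.12.

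Negative acute phase proteins are those that fall in an acute phase response. Of 9 measured genes 8 were tested in period I, of which 4 rose and 2 fell (median 0.09). ALB, albumin, rose by 0.51 (SE 0.10, q = 1.84e-05), AHSG, the mineral binding fetuin A, by 0.38 (SE 0.12, q = 0.00151) and the apolipoprotein APOA2 by 0.26 (SE 0.10, q = 0.00455). SERPINA6, the cortisol carrier, fell by 1.22 (SE 0.22, q = 3.16e-06), and TTR, which carries thyroid hormone, by 0.33 (SE 0.13, q = 0.00498). In period II 4 of 6 were lower and 0 higher in limma (median -0.38), with ALB at -0.63 (SE 0.10, q = 4.86e-07), the iron carrier TF at -0.58 (SE 0.10, q = 1.41e-06, its other probe-set higher) and AHSG at -0.53 (SE 0.09, q = 1.22e-06). In period III 1 of 4 rose, SERPINA6 by 2.33 (SE 0.29, q = 2.5e-08), and 0 fell (median -0.03). Many plasma protein genes sat near the top of the scale. Within 1 log2 unit of the brightest signal of the array at all 4 stages were 7 of the 19 positive and 7 of the 9 negative genes. Quantile normalization took ALB and TTR in period I and ALB, TF, AHSG and HP in period II below the SD limit, and TTR also lost its call with the array median subtracted.

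**Figure D2:**
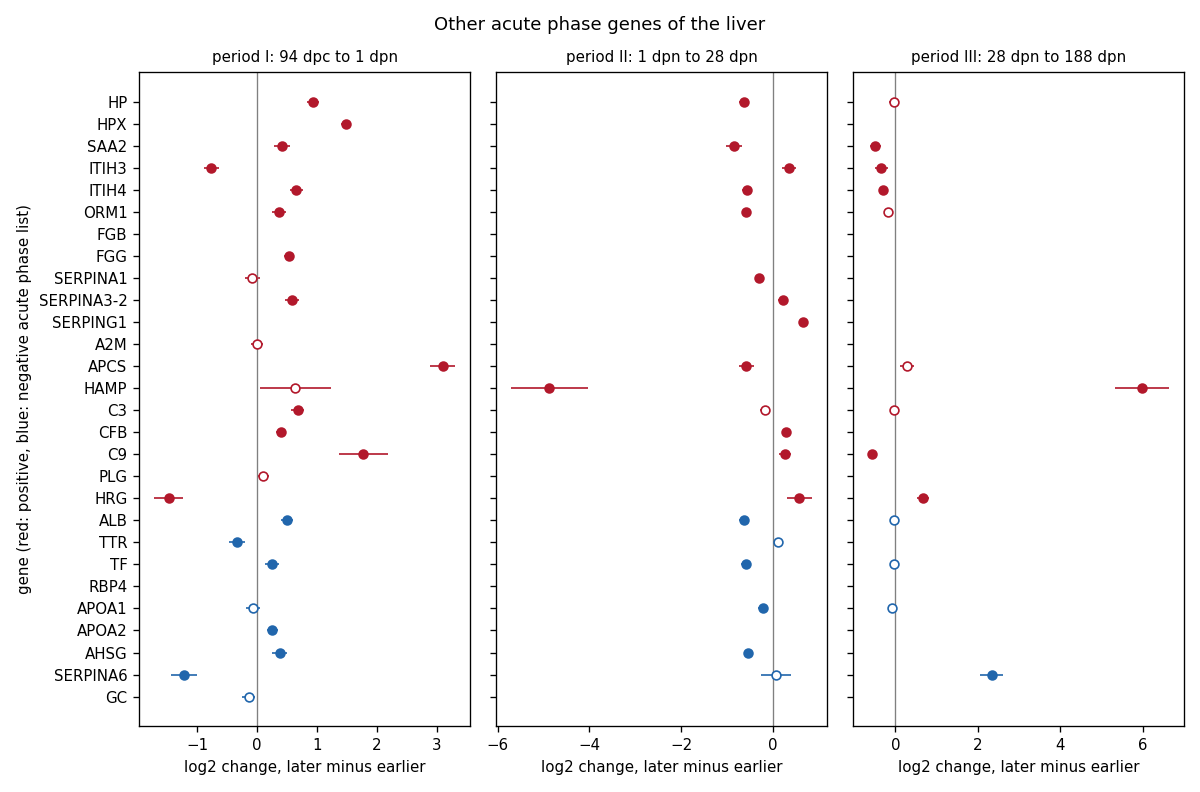
Log2 change with SE (x axis, a separate scale in each panel) of the other acute phase genes (y axis) in periods I, II and III. Filled points passed the limma test and open points did not, genes without a point were not tested; APCS at 3.10 leads period I, while HAMP lies at -4.88 in period II and at 5.97 in period III.

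Among the cytokines that drive the response little was measurable. Of 7 cytokines with a probe-set 3 were tested in period I and 4 in periods II and III. IL6 lay below the array median in all animals but 1 at 188 dpn, with means of 5.14, 6.12, 4.96 and 5.57, and was not tested. The inflammasome product IL18 and the anti-inflammatory IL10 rose in period I, by 0.66 (SE 0.19, q = 0.000596) and 0.64 (SE 0.15, q = 0.000126). In period II TNF rose by 1.16 (SE 0.26, q = 3.95e-05) and IL10 by 0.37 (SE 0.16, q = 0.00695, not called without deviating arrays). In period III IL10 fell by 1.22 (SE 0.16, q = 9.44e-08) and IL18 by 0.93 (SE 0.18, q = 2.66e-05).

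Receptors and signal carriers of these cytokines rose in 6 and fell in 3 of 11 tested genes in period I. STAT3, the factor activated by interleukin 6, increased most, by 1.67 (SE 0.11, q = 1.74e-14), and its level in newborns (11.05 to 12.35) did not overlap with that in fetuses (9.55 to 10.31). The interleukin 1 receptor IL1R1 and the TNF receptor TNFRSF1B rose by 0.54 (SE 0.15, q = 0.000543) and 0.52 (SE 0.09, q = 2.53e-06), and the kinases JAK2 and TYK2 decreased by 1.08 (SE 0.31, q = 0.000686) and 0.80 (SE 0.08, q = 9.23e-11). In period II 5 of 9 rose and 1 fell, with TNFRSF1B at 0.90 (SE 0.09, q = 1.15e-10), TYK2 at 0.82 (SE 0.08, q = 1.13e-10) and the Toll-like receptor adaptor MYD88 at -0.60 (SE 0.14, q = 6.66e-05, not called with the array median subtracted). In period III 1 of 8 rose, STAT3 by 0.52 (SE 0.11, q = 6.66e-05), and 4 fell, TNFRSF1B among them with -0.46 (SE 0.08, q = 5.79e-06).

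Of the transcription factors 4 of 8 tested rose and 4 fell in period I, against 26.1% and 41.6% of all tested probe-sets. CEBPD, which is induced in the acute phase, rose by 1.51 (SE 0.14, q = 1.83e-11), and the hepatocyte factor CEBPA by 0.58 (SE 0.14, q = 0.00013). The immediate early genes FOS and JUN fell by 1.29 (SE 0.45, q = 0.00249) and 0.65 (SE 0.25, q = 0.00465), the latter not called with the array median subtracted. In period II 3 of 9 rose and 1 fell, with NFKBIA, the inhibitor and target of NF-kappaB, at 1.65 (SE 0.12, q = 6e-14), CEBPD at 1.02 (SE 0.15, q = 1.28e-07) and HNF4A, a regulator of hepatocyte genes, at 0.72 (SE 0.09, q = 1.16e-08). In period III 4 of 9 rose, FOS by 1.06 (SE 0.23, q = 8.03e-05), CEBPB by 0.76 (SE 0.15, q = 3.64e-05) and JUN by 0.45 (SE 0.18, q = 0.0114, not called without deviating arrays) ahead of CEBPD, and 0 fell. STAT3 and the brightest CEBPD probe-set were therefore higher at 188 dpn, where LBP and LRG1 were lower than at 28 dpn. Of the 3 CEBPD probe-sets only 1 was called higher in period III, with changes from -0.02 to 0.39.

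CD14, TLR2, TLR4 and LY96 are partners of LBP in the recognition of bacterial products. In period I the co-receptor CD14 rose by 1.81 (SE 0.17, q = 1.39e-11) and the lipoprotein receptor TLR2 by 1.79 (SE 0.40, q = 5.09e-05), among 5 tested genes of which 2 rose and 2 fell. The latter were TLR4 (-0.47, SE 0.17, q = 0.003) and the LBP relative BPI (-0.54, SE 0.21, q = 0.00509), whose calls were lost with quantile normalization or the array median subtracted. Over all tested probe-sets 26.1% were called higher and 41.6% lower. In period II TLR2, LY96 and TLR4 rose by 0.78 (SE 0.18, q = 6.25e-05), 0.71 (SE 0.11, q = 1.33e-07) and 0.51 (SE 0.17, q = 0.00166), although another TLR4 probe-set fell. In period III 4 of 5 fell and 0 rose. TLR2 fell by 1.19 (SE 0.18, q = 6.73e-07), TLR4 by 0.70 (SE 0.14, q = 4.22e-05), CD14 by 0.45 (SE 0.20, q = 0.0156) and LY96 by 0.39 (SE 0.10, q = 0.000638), in the period in which LBP changed by -1.07. With the array median subtracted LY96 and CD14 were not called, and without the deviating arrays CD14 changed by -0.15 and was not called.

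**Figure D3:**
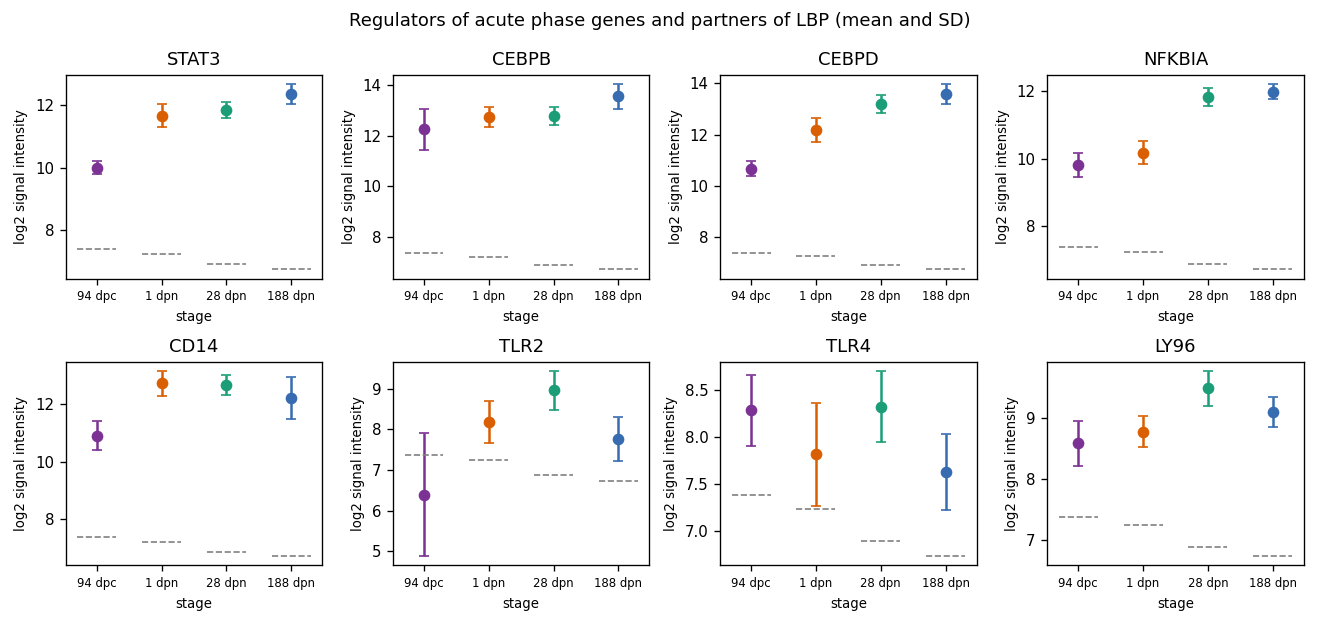
Mean and SD of log2 signal intensity (y axis, a separate scale in each panel) at the 4 stages (x axis) for 4 regulators of acute phase genes and 4 partners of LBP, with dashed lines at the mean array median. On the brightest probe-set of each gene, STAT3 and CEBPD are highest at 188 dpn, and TLR2 and LY96 at 28 dpn.

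Of the partners of CRP, which include the C1q chains and Fc receptors, 2 of 6 rose and 0 fell in period I, where FCGR2B, the inhibitory Fc receptor, rose by 0.43 (SE 0.16, q = 0.00443) beside APCS. In period II 4 of 6 rose and 1 fell, and the median change was 1.45. FCGR3A, an activating Fc receptor, rose by 2.23 (SE 0.18, q = 1.39e-12), C1QC by 1.94 (SE 0.11, q = 8.56e-16) and FCER1G, the signalling chain of Fc receptors, by 1.66 (SE 0.16, q = 3.94e-11). In period III 4 of 6 fell and 0 rose, C1QA by 0.97 (SE 0.14, q = 2.64e-07), FCGR3A by 0.68 (SE 0.13, q = 1.84e-05) and FCER1G by 0.62 (SE 0.13, q = 7.35e-05). C1q and Fc receptor genes are made by macrophages, and the 6 Kupffer cell and macrophage markers moved alongside, C1QA belonging to both lists. In period II 5 of the 6 rose, with a summed level of 13.29 to 14.21 in newborns and 15.14 to 15.81 at 28 dpn, and in period III 4 of 5 tested fell and 1 rose. The summed level at 188 dpn was 15.36 to 15.92, not below that at 28 dpn. The gene that rose was FOLR2, a folate receptor of macrophages, with changes of 4.33 (SE 0.21, q = 8.56e-18) in period II and 0.68 (SE 0.10, q = 3.25e-07) in period III. In such bulk liver samples fewer cells of a type and less RNA per cell cannot be told apart.

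Of the partners of LRG1 in TGF-beta signalling 2 of 5 rose and 3 fell in period I. The co-receptor endoglin, ENG, rose by 0.88 (SE 0.13, q = 1.72e-07), while the receptor TGFBR1 changed by -1.23 (SE 0.14, q = 2.17e-09) and the signal carrier SMAD4 by -0.86 (SE 0.10, q = 4.37e-09). In period II 2 of 6 rose and 2 fell. ENG fell by 1.45 (SE 0.12, q = 4.35e-12), SMAD1 rose by 0.64 (SE 0.09, q = 7.82e-08) and the ligand TGFB1 by 0.39 (SE 0.12, q = 0.00102). In period III 1 of 6 fell, TGFB1 by 0.30 (SE 0.12, q = 0.0116, not called with quantile normalization), and 0 rose. ENG also belongs to the endothelial markers, of which 2 rose and 1 fell in period I, 2 rose and 2 fell in period II, and 1 rose and 3 fell in period III.

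Blood cell markers moved with period I and II as well. All 5 erythroid markers fell in period I, with a summed level of 11.37 to 14.69 in fetuses and 10.04 to 11.98 in newborns. Of the granulocyte markers 3 of 7 fell in period I, near the share of 41.6% over all tested probe-sets. All 6 tested fell in period II, where that share was 41.4%. Of these S100A8, S100A12, PRTN3 and LTF passed the filter through the newborns only, so a fall was largely set by it. The summed median of the granulocyte markers went from 13.64 in fetuses to 12.27 in newborns and 10.20 at 28 dpn. Of the hepatocyte markers 3 rose and 1 fell in period I. The part of these markers in the stage levels of CRP, LBP and LRG1 was not tested.

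Whether an animal with much of 1 acute phase transcript also had much of the others was examined within each stage, since animals of different stages form separate clusters. Deviations from the stage mean do not enter the stage differences for which the genes were picked. For 3 pairs and 4 stages 12 correlations were computed, with two-sided permutation tests and Benjamini-Hochberg adjustment over the 12. By Pearson r 1 of 12 passed, and by Spearman rho 2.

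LBP and LRG1 at 188 dpn passed by both measures, with r = 0.90 (permutation p = 2e-05, adjusted p = 0.00024, n = 16) and rho = 0.87 (permutation p = 5e-05, adjusted p = 0.0006). The 3 pigs with the highest LBP had 14.10, 14.22 and 14.22 and LRG1 signals of 13.86, 13.96 and 13.67, the 3 highest of LRG1. The pig with the lowest LBP, 11.78, had an LRG1 of 12.55, and 4 of the 5 highest and 3 of the 5 lowest animals were shared by both genes. LRG1 differed by 0.59 per unit of LBP. The 5 highest LBP signals belonged to replicates 57 to 61, the last in the numbering, with 13.39 or more against at most 13.27 in the other pigs. LRG1 was 13.40 to 13.96 in these and at most 13.58 in the others. The labels do not say what the order stands for, and whether the correlation holds apart from it was not tested. Without the 2 animals farthest from the median of LBP r was 0.87 (permutation p = 0.00014), and without the 2 farthest in LRG1 0.85. With the dimmer LBP probe-set averaged in, r was 0.81 (adjusted permutation p = 0.00324). In that mean the brighter probe-set weighed more, with an SD of 0.82 against 0.54, and the 2 correlated at 0.40. On the dimmer probe-set the lowest pig, 5.33, had an LRG1 of 13.31 and the highest, 7.38, one of 13.14. The r of the dimmer probe-set alone with LRG1 was not computed.

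At the other stages LBP and LRG1 correlated less. At 1 dpn r was 0.56 (permutation p = 0.0356, adjusted p = 0.142, n = 14; rho = 0.63, adjusted p = 0.0772), and 4 of the 5 highest animals were shared. LBP also correlated with the array median at 1 dpn (r = 0.62), and LRG1 less so (r = 0.44). With the median subtracted the correlation of the pair was 0.50. At 94 dpc r was 0.14 (permutation p = 0.6, adjusted p = 0.725, n = 16, rho = 0.10) and at 28 dpn 0.11 (permutation p = 0.695, adjusted p = 0.725, n = 15, rho = 0.04), where LRG1 hardly varied. Without the 2 animals farthest in LRG1 r was 0.76 at 1 dpn, 0.40 at 94 dpc and 0.27 at 28 dpn. The pair at 188 dpn was singled out as the largest of the 12, so no test of its difference from the other stages is given.

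**Figure D4:**
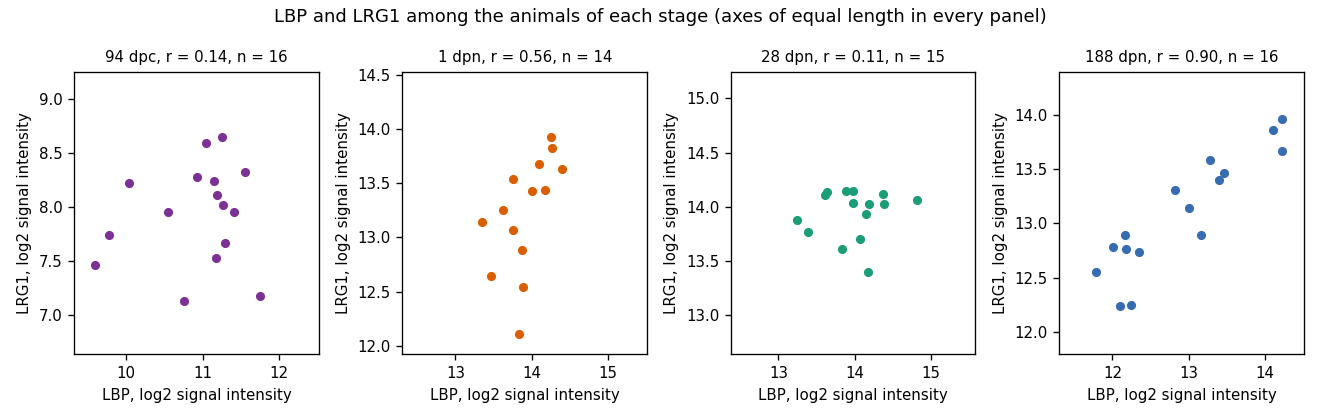
LRG1 (y axis) against LBP (x axis), both as log2 signal intensity, 1 point per animal and 1 panel per stage, with axes of the same length in every panel. The 16 pigs at 188 dpn lie along a line (r = 0.90), while those at 94 dpc and 28 dpn do not (r = 0.14 and 0.11).

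The correlations of CRP with the other members were largest among the oldest pigs, and their size depended on which animals were left out. At 188 dpn r was 0.56 with LBP (permutation p = 0.0242, adjusted p = 0.142, n = 16; rho = 0.53, adjusted p = 0.106) and 0.50 with LRG1 (permutation p = 0.0475, adjusted p = 0.143, n = 16), where rho was 0.68 and passed (adjusted permutation p = 0.0271). The pigs highest in CRP shared 4 of 5 animals with those highest in LBP, and 4 of 5 with those highest in LRG1. Of the last replicates in the numbering, 57 and 59 to 61 had CRP signals of 14.56 to 15.40 and 58 had 14.16, against at most 15.38 in the other pigs. Whether the correlations of CRP hold apart from this order was not tested. The pig lowest in CRP, at 13.04, had 12.82 in LBP and 13.31 in LRG1, both near the middle of their ranges. CRP was itself related to the array median at this stage (r = -0.51), and with the median subtracted both correlations were 0.61 (adjusted permutation p = 0.0492 for each). Without the 2 pigs farthest in the other gene r was 0.38 with LBP and 0.25 with LRG1. Without the 2 farthest in CRP it was 0.58 with LBP and 0.62 with LRG1.

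Among newborns, in which CRP varied most, its r was 0.29 with LBP (permutation p = 0.312, adjusted p = 0.686, n = 14, rho = 0.21) and -0.27 with LRG1 (permutation p = 0.343, adjusted p = 0.686, n = 14, rho = -0.31). At 28 dpn these values were 0.19 (permutation p = 0.5, adjusted p = 0.725, n = 15, rho = -0.02) and 0.22 (permutation p = 0.433, adjusted p = 0.725, n = 15, rho = 0.25). At 94 dpc they were 0.12 (permutation p = 0.661, adjusted p = 0.725, n = 16, rho = -0.11) and -0.10 (permutation p = 0.725, adjusted p = 0.725, n = 16, rho = 0.02), with CRP below the array median throughout. Without the 2 animals farthest in LBP r with LBP at 94 dpc was 0.48, and without the 2 farthest in CRP r with LRG1 at 28 dpn was 0.48. A newborn with a CRP of 14.13, the highest, had an LRG1 of 12.88, and the newborn with the lowest CRP, 9.93, one of 13.54.

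**Figure D5:**
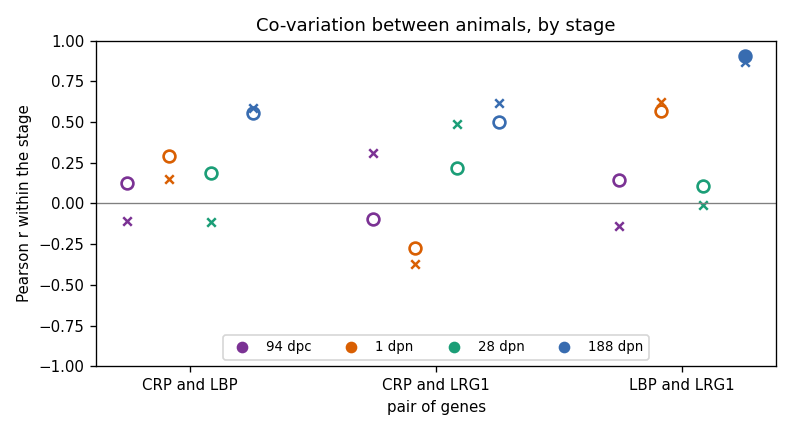
Pearson r within the stage (y axis) for the 3 pairs of genes (x axis), coloured by stage. A filled circle passed the permutation test of r after adjustment over 12 correlations, open circles did not, and crosses give r without the 2 animals farthest from the median of the first gene; the filled circle is LBP and LRG1 at 188 dpn.

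Other acute phase genes were set against the members within each stage as a description. Over the 19 positive genes the median r with CRP was 0.03, 0.15, -0.38 and 0.46 from 94 dpc to 188 dpn, that with LBP 0.06, 0.54, -0.39 and 0.05, and that with LRG1 0.29, 0.53, 0.29 and -0.02. Over the 9 negative genes it was -0.01, -0.08, -0.41 and 0.36 with CRP, 0.12, 0.48, -0.45 and -0.15 with LBP, and 0.33, 0.71, 0.30 and -0.24 with LRG1. Genes of both lists thus varied alike with LBP and LRG1 at 1 dpn and with every member at 28 dpn. At 188 dpn the r with CRP was positive for both lists. The median over all 13912 probe-sets lay between -0.11 and 0.02.

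Single genes, chosen after their values were seen, stood out by their r. APCS followed CRP after birth (r = 0.00, 0.74, 0.75 and 0.70 from 94 dpc to 188 dpn), but not LBP (-0.16, -0.02, -0.12 and 0.16) or LRG1 (0.21, -0.09, -0.06 and 0.11). STAT3 had r = 0.66 with CRP, 0.71 with LBP and 0.56 with LRG1 at 188 dpn, and 0.70, 0.12 and -0.25 at 1 dpn. CD14 correlated with LRG1 at 0.65 in newborns and 0.58 at 188 dpn, and with LBP at 0.41 and 0.46. ITIH4, an inter-alpha-trypsin inhibitor chain known in pigs as the major acute phase protein, correlated with CRP at 0.76, LBP at 0.56 and LRG1 at 0.51 at 188 dpn.

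The genes most like each member were ranked by the r of deviations from the stage mean over all 61 arrays, among 5503 genes. For LBP the leading genes were DDOST, a subunit of the oligosaccharyltransferase that glycosylates secreted proteins (0.58), GPR108 (0.54), LRG1 (0.52), the endoplasmic reticulum peroxiredoxin PRDX4 (0.48) and RASSF2 (0.45). For LRG1 they were the plasma protease HABP2 (0.56), PRDX4 (0.54), the organic anion carrier SLCO2B1 (0.53), LBP (0.52) and the inhibitory receptor SIRPA (0.52). LBP thus ranked 4 for LRG1 and LRG1 ranked 3 for LBP, and PRDX4 was on both lists. The r of DDOST with LBP was 0.40, 0.49, 0.41 and 0.78 from 94 dpc to 188 dpn.

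CRP had other neighbours. Spermidine synthase SRM led with 0.61, followed by the alkaline phosphatase ALPL (0.58), C17H20orf27 (0.57), the polyamine enzyme ornithine decarboxylase ODC1 (0.54) and CRELD2, an endoplasmic reticulum stress gene (0.53). At 1 dpn the r of CRP with SRM was 0.86, with ALPL 0.88 and with CRELD2 0.85, and at 28 dpn 0.36, 0.31 and -0.02. Whether those at 1 dpn hold apart from the order of the newborns in the numbering was not tested. LBP held rank 543 for CRP (r = 0.23) and LRG1 rank 2949 (r = -0.02).

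By the shape of the stage means alone, given as the root mean square difference of the centred means in log2 units, CRP was nearest to CYP3A39 (0.84), ETNPPL (0.86), PON3 (0.90), CYP2E1 (1.09) and ANGPTL4, with LRG1 at rank 11 (1.37). LBP was nearest to WFDC1 (0.27), SCARA5 (0.28), CPT1A (0.31), CBR1 (0.32) and GBP1 (0.32). LRG1 was nearest to AZGP1, a plasma glycoprotein (0.33), CYP2E1 (0.42), SULT2A1 (0.56), SULT1E1 (0.61) and EGFLAM (0.64). CYP3A39 and CYP2E1 are drug metabolising cytochromes, and SULT2A1 and SULT1E1 are sulphotransferases. A like shape did not mean a like ranking of animals within a stage. From 94 dpc to 188 dpn r was -0.27, 0.23, -0.15 and -0.10 for CRP and CYP3A39, and 0.14, 0.12, 0.29 and 0.56 for LRG1 and AZGP1.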

How the data were processed

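Total RNA of 61 livers was labelled and hybridised to Affymetrix porcine arrays (24123 probe-sets, 188 of them controls, left out). The deposited values are linear signal intensities, which the authors scaled per array in GCOS 1.1.1 per the labels; the trimmed mean (2% at each end) was 500.1 to 500.2 on every array. They were taken to log2 here. The GC-RMA values and detection calls described in the methods were not used here. The annotation gave 1 symbol for 10069 probe-sets, several for 198 and none for 13668.

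Each period was fitted with limma 3.58.1 (R 4.3.3) on probe-sets with an SD above 0.25 that exceeded the median of the array in 50% or more of the animals at 1 of its stages. Changes were called at P and Storey q of at most 0.05. Sex, mother and weight are not in the labels, so no mixed model was fitted. Genes with several probe-sets were represented by the brightest. Correlations used 100000 permutations, the smallest p of which is 1e-05. Programs were tested on simulated data. The number of arrays limits the precision, and no depth applies.

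The members and gene lists were chosen with earlier results of these data known. Named are all member probe-sets, the 5 genes most like each member, and up to 3 called genes per list, period and direction with the largest changes, apart from further genes (HP, the second probe-sets of SAA2 and ORM1, and the single correlations) named after their values were seen. Alternatives were quantile normalization, subtraction of the array median, raising signals below the median, a pseudocount of 16, the mean of probe-sets, other filters and adjustments, regression on the GAPDH control and leaving out deviating arrays or animals, of which leaving out arrays was chosen after seeing the data.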

Additional observations from a re-analysis of the deposited data

How the results depend on the processing

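Of 60 stage differences of the members under alternatives 58 moved by less than the spread between animals, and the others were those with dim signals raised to the array median, in period I, of CRP (4.69) and the dimmer LBP probe-set (0.70). Of 96 counts of positive and negative acute phase genes 80 stayed within 1.5 times. Quantile normalization left few bright genes above the SD limit. With it 2 positive genes were higher and 3 lower in period II, 2 negative genes higher and 1 lower in period I, and 0 lower in period II. With the array median subtracted positive genes in period III gave 5 higher and 2 lower, and negative genes 1 lower in period I and 1 higher and 2 lower in period II. With the mean of probe-sets positive genes gave 2 higher in period II and 1 higher and 7 lower in period III, and negative genes 1 higher in period II. Benjamini-Hochberg adjustment gave 3 positive genes higher in period II, and no filter gave 1 negative gene lower in period III.

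The correlation of LBP and LRG1 at 188 dpn passed in all 7 alternatives (0.81 to 0.93). Signs turned in weak correlations. Without the 2 farthest animals these were CRP and LBP at 94 dpc (-0.11) and 28 dpn (-0.11), CRP and LRG1 at 94 dpc (0.31), and LBP and LRG1 at 94 dpc (-0.14) and 28 dpn (-0.0081). Without deviating arrays LBP and LRG1 at 94 dpc turned (-0.031). With dim signals raised, CRP at 94 dpc was the array median in all 16 fetuses. The values then obtained with LBP (-0.081) and LRG1 (0.16) hold no CRP signal and say nothing on its co-variation. Newly passing were, at 188 dpn, CRP and LBP with the median subtracted (0.61), the GAPDH control regressed out (0.64) and the mean of probe-sets (0.72), CRP and LRG1 with the median subtracted (0.61), and, at 1 dpn, LBP and LRG1 with the mean of probe-sets (0.66). The causes were not tested. No paired analysis was possible, because each animal was killed at its stage and the labels do not mark the litters that stages may share.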
